A study of Mus musculus with 12 samples.

Results

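The comparison described here sets CD4+ T cells stimulated through CD3, CD28 and ICOS together against cells stimulated through CD3 alone. Its members are the genes that reached 10 CPM (reads per 1e6 assigned reads, with no correction for gene length) in at least 3 of the 12 libraries, which were 9826 of the 17203 genes listed. The cells were primary murine CD4+ T cells from C57BL/6 mice, and each group held 3 libraries of total RNA. The CD3 group was cultured for 72 h on plate-bound anti-CD3. In the CD3_CD28_ICOS group antibodies to all 3 receptors were given for 72 h, in soluble form per the labels. For side-by-side levels, CD3_CD28 cells received plate-bound anti-CD3 with soluble anti-CD28 for 72 h, and Unstimulated cells were freshly isolated. The descriptions of the Unstimulated libraries name them as naive CD4 cells. CD3_CD28_ICOS therefore differed from CD3 in anti-CD28, in anti-ICOS and in the form of anti-CD3, and these cannot be told apart. The study is about NFAT2 signaling without AP-1. Its design text mentions transduced cells, which none of the labels do. Whether replicate libraries stem from different mice or cultures is not in the labels, and each p-value therefore reflects only how far these libraries spread, which may be technical. In bulk RNA, fewer cells of a type and less RNA per cell cannot be told apart.

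The T cell receptor signals through its CD3 chains to calcium and calcineurin, which move NFAT factors into the nucleus, and to the MAP kinases, which feed the AP-1 factors. CD28 and ICOS are related costimulatory receptors: both recruit PI3 kinase, CD28 is present on resting cells, and ICOS appears after activation and is known for its part in follicular helper, regulatory and TH2 cells. PI3 kinase acting through AKT keeps FOXO factors out of the nucleus, and FOXO factors and KLF2 maintain naive homing genes such as S1pr1. Receptor signal strength is commonly read from EGR and NR4A genes, and growth of activated cells from MYC, ribosome assembly and DNA replication.

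Between CD3_CD28_ICOS and CD3, 1859 genes were higher (18.9% of those tested) and 2824 were lower (28.7%) in limma's moderated test on log2(CPM + 1) at a Benjamini-Hochberg adjusted p of 0.05, together 47.7%. Changes of at least 1 log2 unit were fewer, at 290 higher (2.95%) and 481 lower (4.9%). The 3 values of a group did not overlap those of the other for 2343 genes on the higher side (23.8%) and 3409 on the lower side (34.7%), together 58.5%. The median log2 fold change over all tested genes was -0.07, and the balance of directions depended on scaling: quantile normalization, which moved that median to 0.0085, gave 2591 higher and 2542 lower. The authors' deposited table of this comparison, at their false discovery rate of 0.05, held 690 higher and 759 lower among the tested genes. Both there and here 1447 genes were called, 3236 only here and 2 only there. Every fold change that follows is CD3_CD28_ICOS minus CD3 as a difference of log2(CPM + 1), a scale that shrinks the change of low genes. Its standard error (SE) comes from limma, with 3 libraries in each group. Where 2 sets of 3 values are joined without group names, the first is CD3 and the second CD3_CD28_ICOS, each in replicate order. Of the genes called, 147 lower and 54 higher ones reached 10 CPM in 3 libraries only with those of their higher group. The filter favoured such a call but did not ensure it: 262 tested genes needed the CD3 libraries and 129 the CD3_CD28_ICOS libraries. Those named are given as levels with no test, and no gene list held more than 2 of them.

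Estimated depth, in units of 1e6 reads, was 11.4 to 26.5 in the CD3 libraries and 26.7 to 37.5 in the CD3_CD28_ICOS libraries. Correlations of log2 CPM between libraries of a group were 0.989 to 0.993 in CD3 and 0.968 to 0.987 in CD3_CD28_ICOS, so the CD3_CD28_ICOS libraries were less alike. Cd4, the coreceptor gene that defines the cells, was at 596, 571 and 528 CPM in CD3 and 940.1, 1178 and 1144 CPM in CD3_CD28_ICOS. Transcripts of B cells were present in both. The summed level of 15 B cell markers was 1145, 1218 and 2366 CPM in CD3 and 2535, 917 and 2108 CPM in CD3_CD28_ICOS, and 0 of the 15 passed the test (0 also at an unadjusted p under 0.05). Without the second CD3_CD28_ICOS library, the lowest in these markers, 2 of the 15 were higher. Myeloid markers summed to 14.9 to 17.8 CPM in CD3 and 10.3 to 23.6 CPM in CD3_CD28_ICOS, with Cd14 at 0 in all 3 CD3 libraries and at 0.0266, 0 and 0 CPM in CD3_CD28_ICOS. Fcgr3, another of them, was at 0.790, 0.683 and 0.912 CPM and 2.27, 3.33 and 2.57 CPM without overlap, below the tested level, and Lyz2 was at 0.614, 0.114 and 0.226 CPM and 6.45, 0.262 and 0.0705 CPM, highest in the first CD3_CD28_ICOS library. Of the 10 tested myeloid markers 2 were lower (Itgam and Cd68) and 0 higher. These are 20% and 0%, beside 28.7% and 18.9% of all tested genes.

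**Figure D1:**
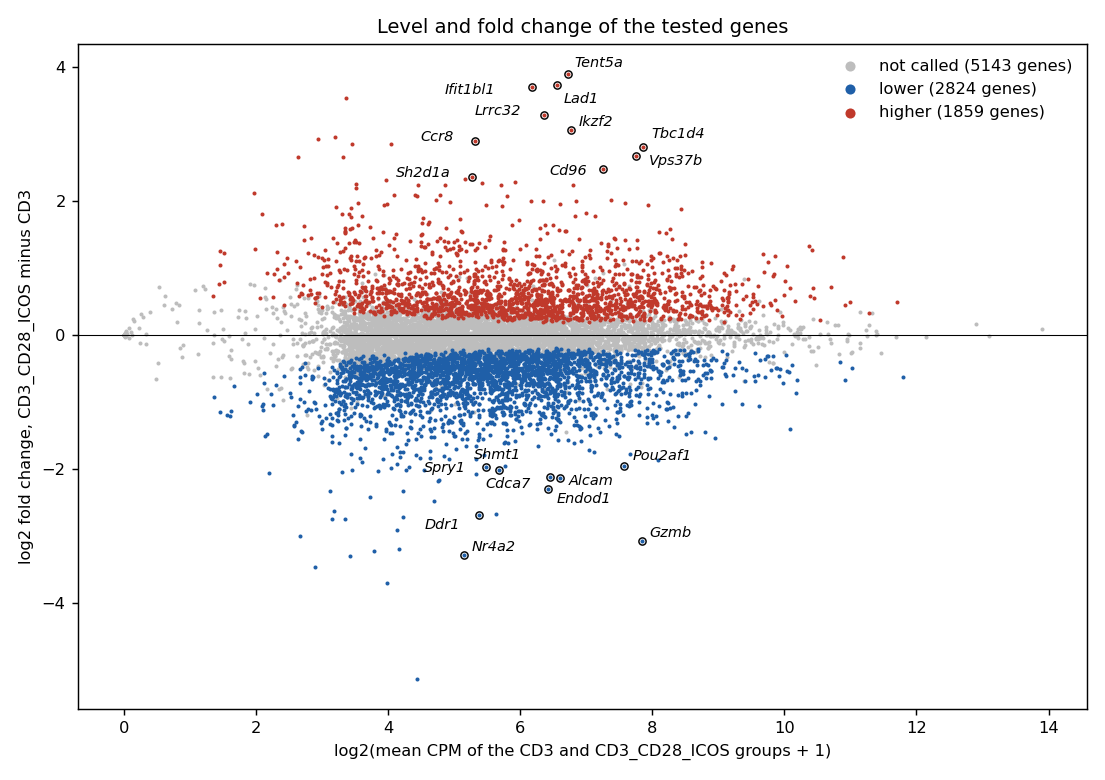
Each point is 1 of the 9826 tested genes, by its level (log2 of the mean CPM of both groups plus 1) and its log2 fold change in CD3_CD28_ICOS against CD3; colours give the 1859 genes called higher, the 2824 called lower and the rest. The 19 named genes are among the largest called changes at or above the median level, from Tent5a at 3.89 to Nr4a2 at -3.28.

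The largest rises included Lrrc32 and Ikzf2, genes known from regulatory T cells. Tent5a, a poly(A) polymerase gene, was at 13.3, 12.1 and 11.2 CPM in CD3 and 167, 188 and 232 CPM in CD3_CD28_ICOS (log2 fold change 3.89 ± 0.20 SE, adjusted p = 2.35e-07). Lrrc32, which encodes GARP, the docking receptor for latent TGF-beta, went from 17.2, 12.5 and 12.96 CPM to 124, 165 and 152 CPM (log2 fold change 3.29 ± 0.19 SE, adjusted p = 4.72e-07). Lad1, the gene of ladinin, stood at 6.58, 18.4 and 13.4 CPM against 219.7, 145 and 152 CPM (log2 fold change 3.73 ± 0.31 SE, adjusted p = 5.63e-06). In all 3 genes every CD3_CD28_ICOS library lay several times above every CD3 library. Ikzf2, which encodes the Ikaros family factor Helios, was at 31.1, 13.2 and 24.3 CPM in CD3 and 243, 127 and 212 CPM in CD3_CD28_ICOS (log2 fold change 3.06 ± 0.32 SE, adjusted p = 2.85e-05), with the second library of each group the lowest. Tbc1d4, an AKT substrate gene that controls glucose transporter traffic, rose from 61.9, 52.5 and 55.6 CPM to 356, 434 and 419 CPM (log2 fold change 2.81 ± 0.20 SE, adjusted p = 1.21e-06). Vps37b, of the ESCRT sorting machinery, was higher by 2.67 ± 0.18, and Cd96, a receptor of the nectin-binding family, by 2.47 ± 0.16 (adjusted p = 9.6e-07 and 5.51e-07). Ifit1bl1, an interferon-induced gene of the IFIT family, was at 7.72, 9.64 and 9.87 CPM and 134, 94.7 and 170.4 CPM (log2 fold change 3.70 ± 0.28 SE, adjusted p = 1.98e-06).

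The largest decreases included Nr4a2, a receptor-response gene, and Gzmb, an effector gene. Nr4a2, an orphan nuclear receptor gene induced by receptor signals, was at 73.96, 61.7 and 53.5 CPM in CD3 and 8.34, 4.15 and 4.83 CPM in CD3_CD28_ICOS (log2 fold change -3.28 ± 0.31 SE, adjusted p = 7.77e-06). Gzmb, which encodes the cytotoxic protease granzyme B, was at 313, 533 and 377 CPM and 45.6, 71.3 and 30.6 CPM (log2 fold change -3.07 ± 0.32 SE, adjusted p = 4.29e-05). The lowest CD3 library exceeded the highest CD3_CD28_ICOS library in both genes. Ddr1, a collagen receptor kinase gene, fell by 2.68 ± 0.19 on the log2 scale (adjusted p = 1.04e-06). Alcam, the gene of the CD6 ligand, was at 175, 139 and 155 CPM and 45.5, 27.6 and 33.3 CPM (log2 fold change -2.13 ± 0.23 SE, adjusted p = 2.29e-05). Endod1 changed by -2.29 ± 0.22, Cdca7 by -2.12 ± 0.22 and Spry1, a feedback inhibitor of receptor kinase signaling, by -1.97 ± 0.23, all with groups that did not overlap. Pou2af1, the gene of a coactivator best known from B cells, was at 341, 227 and 314 CPM and 129.6, 37.7 and 83.2 CPM (log2 fold change -1.95 ± 0.43 SE, adjusted p = 0.00406). It was lowest in the second CD3_CD28_ICOS library. The summed B cell markers of the same libraries were 1145, 1218 and 2366 CPM and 2535, 917 and 2108 CPM, and their part in the result was not tested.

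**Figure D2:**
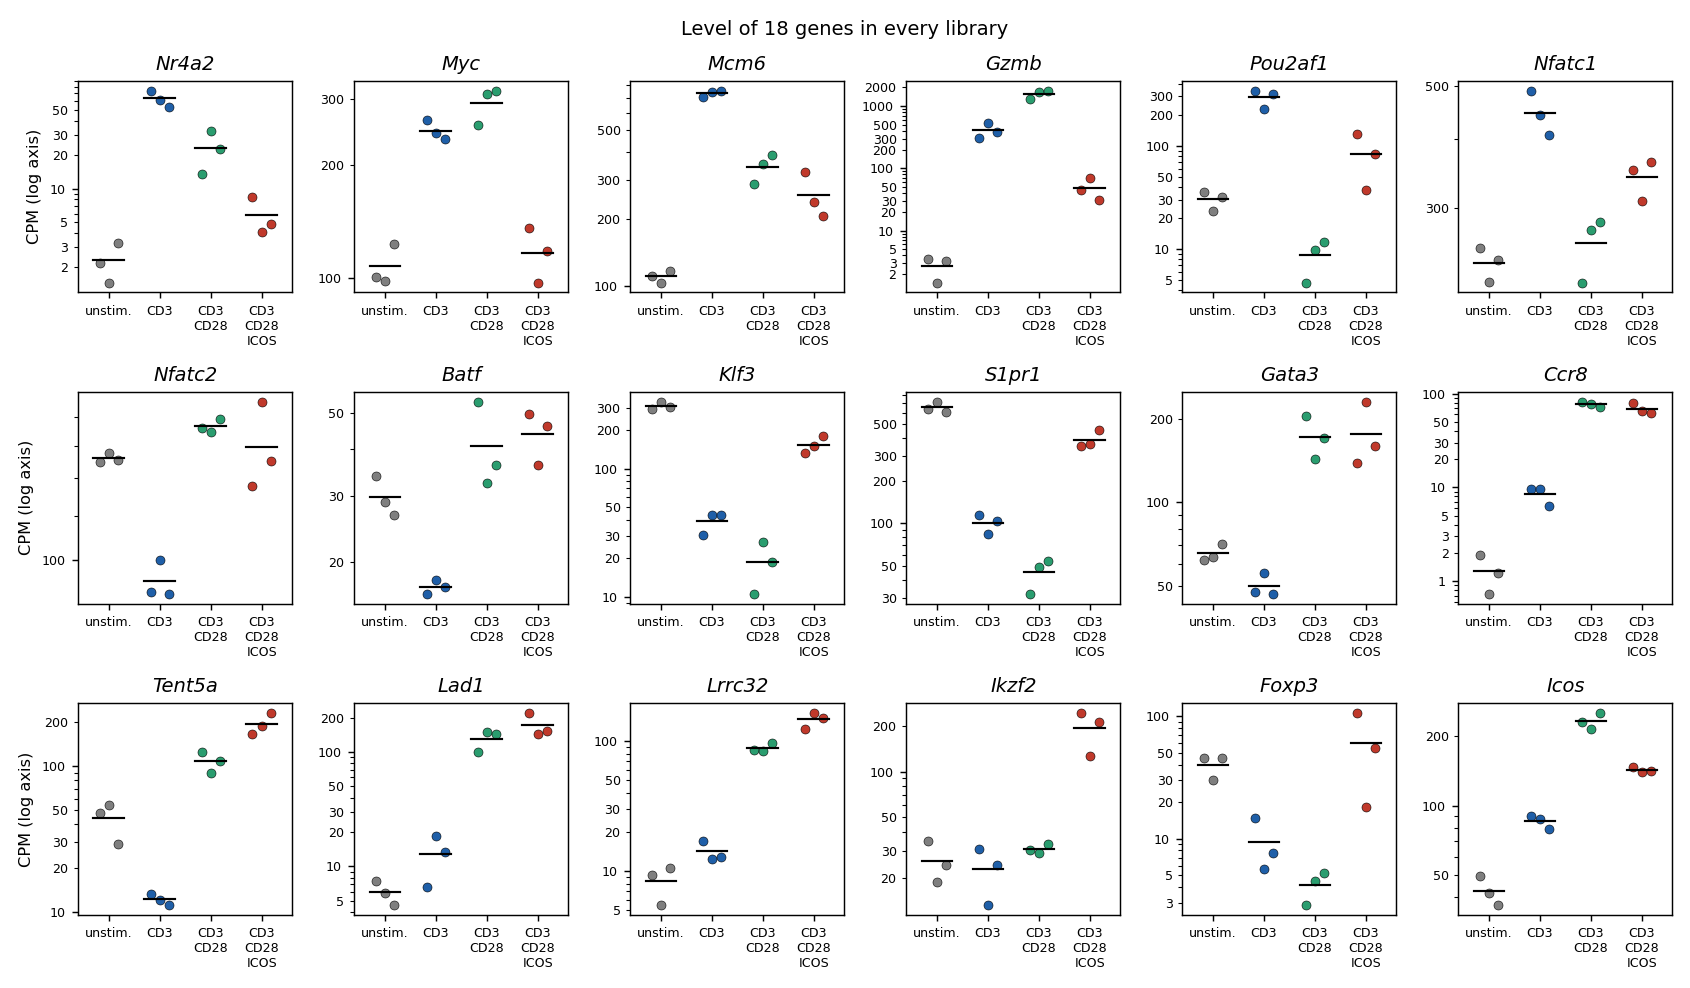
Level in CPM on a log axis of 18 genes in each of the 12 libraries, by group; points are libraries and bars are group means. Nr4a2, Gzmb, Myc and Mcm6 lie lower in CD3_CD28_ICOS than in CD3, and Tent5a, Lad1, Lrrc32, Ikzf2 and Ccr8 lie higher.

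Among the costimulatory receptors, Icos itself, the receptor engaged by the third antibody, was at 90.2, 87.2 and 79.05 CPM in CD3, 148, 139.6 and 142 CPM in CD3_CD28_ICOS and 230.1, 216 and 253 CPM in CD3_CD28. It was higher than in CD3 (log2 fold change 0.74 ± 0.11 SE, adjusted p = 0.00011) and lower than in CD3_CD28 (log2 fold change -0.70 ± 0.11 SE, adjusted p = 6.23e-05). Ctla4, the gene of an inhibitory receptor related to CD28, rose from 147, 164 and 151 CPM to 260.5, 403 and 318 CPM (log2 fold change 1.06 ± 0.24 SE, adjusted p = 0.00341). Cd28 was at 664, 639.8 and 587 CPM and 529, 625 and 575 CPM with overlapping groups (log2 fold change -0.13 ± 0.10 SE, adjusted p = 0.299, and adjusted p = 0.0189 after quantile normalization). Of 13 tested genes of the CD28 and TNF receptor costimulators 6 were higher and 1 was lower (background 18.9% and 28.7%), with a median of 0.24 against -0.07 for all genes. Tnfrsf25, the gene of death receptor 3, was higher by 1.57 ± 0.17 and Cd27 by 0.87 ± 0.14, while Tnfrsf9, which encodes 4-1BB, fell by 0.53 ± 0.13 on the log2 scale. In the T cell receptor complex and its proximal partners 11 of 18 genes were higher and 3 lower, with a median of 0.37. Without the first CD3 library 1 of those 18 was lower. Besides Cd4 and the receptor chains Cd3d, Cd3g and Cd247, the rises were in adaptors and regulators. The chain Cd3e was not called, at 420, 383 and 363 CPM and 406, 383 and 410 CPM (log2 fold change 0.04 ± 0.10 SE, adjusted p = 0.757). Trat1, the adaptor TRIM of the receptor complex, was at 14.8, 24.3 and 20.9 CPM and 110, 87.4 and 101 CPM (log2 fold change 2.28 ± 0.17 SE, adjusted p = 1.23e-06). Ubash3a, a suppressor of receptor signaling, was at 87.9, 79.5 and 79.7 CPM and 207, 219 and 215 CPM (log2 fold change 1.37 ± 0.09 SE, adjusted p = 4.77e-07). Themis was at 101, 95.8 and 97.2 CPM and 169, 345 and 240.2 CPM (log2 fold change 1.29 ± 0.18 SE, adjusted p = 0.000148). Lat, the membrane scaffold downstream of ZAP70, was slightly lower (log2 fold change -0.35 ± 0.10 SE, adjusted p = 0.00792).

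The study's question concerns NFAT2, the product of Nfatc1. Nfatc1 was at 489.8, 443 and 408 CPM in CD3, 351, 309 and 362 CPM in CD3_CD28_ICOS and 219, 273 and 283 CPM in CD3_CD28, so every CD3_CD28_ICOS library lay between the other two groups (log2 fold change -0.39 ± 0.11 SE, adjusted p = 0.0102 against CD3; 0.41 ± 0.11 against CD3_CD28, adjusted p = 0.00542). The authors' deposited table gave Nfatc1 a false discovery rate of 0.0694 against CD3. Its relatives went the other way: Nfatc2, the gene of NFAT1, was at 87.7, 100.2 and 87.03 CPM and 135, 192 and 150.1 CPM (log2 fold change 0.78 ± 0.11 SE, adjusted p = 0.000107). Nfatc3, the gene of NFAT4, was at 344, 337 and 333 CPM and 472, 477 and 495 CPM (log2 fold change 0.51 ± 0.10 SE, adjusted p = 0.000985). In each of the 3 NFAT genes the CD3 and CD3_CD28_ICOS values did not overlap. Across 15 tested NFAT and calcineurin genes 6 were higher and 1 was lower (40% and 6.67%, beside 18.9% and 28.7% of all tested genes). Without the first CD3, the first or the third CD3_CD28 or the third Unstimulated library 2 were lower. Rcan3, a calcineurin inhibitor of the RCAN family, rose by 0.81 ± 0.11.

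Among 12 tested AP-1 genes 2 were higher and 1 lower (16.7% and 8.33%, beside 18.9% and 28.7% of all tested genes), with a median of 0.02, and 2 were lower without the second CD3_CD28_ICOS or the third Unstimulated library. The largest rise was in Batf, which pairs with JUN proteins and IRF4. Batf was at 16.5, 17.9 and 17.2 CPM in CD3 and 49.5, 36.2 and 46.02 CPM in CD3_CD28_ICOS (log2 fold change 1.29 ± 0.17 SE, adjusted p = 5.2e-05). Bach2, which competes for AP-1 sites and restrains effector genes, rose from 413, 372 and 369 CPM to 499.8, 526 and 525 CPM (log2 fold change 0.43 ± 0.09 SE, adjusted p = 0.00126), and Mafg, a small MAF gene, fell by 0.64 ± 0.13 on the log2 scale. Jun was at 31.8, 59.6 and 48.8 CPM and 36.3, 55.1 and 41.2 CPM and Jund at 210.5, 225 and 200 CPM and 236, 209 and 244 CPM, with overlapping groups. Fos was low in both groups, at 9.56, 10.7 and 8.33 CPM and 13.4, 19.9 and 23.7 CPM, and did not pass the test (log2 fold change 0.90 ± 1.12 SE, adjusted p = 0.551). The third Unstimulated library, at 1275 CPM, is part of the fit: with the 6 libraries of the 2 groups alone, Fos had the same fold change with an adjusted p of 0.00924. Fosl1 and Batf3 lay below the tested level, at 1.14, 0.334 and 0.517 and 0.614, 0.493 and 0.264 CPM in CD3 and 0.0943, 0.0799 and 0.0397 and 0.0799, 0.112 and 0.247 CPM in CD3_CD28_ICOS.

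Of 19 EGR, NR4A and early receptor response genes 10 were lower and 1 was higher (52.6% and 5.26%), with a median of -0.65. Among all tested genes 28.7% were lower and 18.9% higher. Myc, the growth regulator, was at 264, 243 and 235 CPM in CD3 and 136, 97.3 and 118 CPM in CD3_CD28_ICOS (log2 fold change -1.08 ± 0.13 SE, adjusted p = 2.69e-05). Tfrc, the transferrin receptor gene of dividing cells, was at 513, 643 and 519 CPM and 258, 232 and 142 CPM (log2 fold change -1.44 ± 0.21 SE, adjusted p = 0.000186). Nr4a2 and Spry1 belong to the same list. Nr4a1, the best known reporter of receptor signaling, was not called: it was at 294, 243 and 208 CPM and 263, 175 and 274 CPM, with overlapping groups (log2 fold change -0.08 ± 0.62 SE, adjusted p = 0.932). Dusp5 was higher, at 41.9, 44.9 and 38.3 CPM and 116, 114 and 112 CPM (log2 fold change 1.43 ± 0.47 SE, adjusted p = 0.0316), a call lost when any 1 of the 6 libraries was left out (adjusted p up to 0.0888). Without the third Unstimulated library, at 126 CPM, its standard error was 0.09 and its adjusted p 9.37e-07.

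Genes of the naive and quiescent state were higher in CD3_CD28_ICOS: 19 of 23 were higher and 1 was lower, with a median of 0.89. These are 82.6% and 4.35%, beside 18.9% and 28.7% of all tested genes. S1pr1, the receptor that lets T cells leave lymphoid organs, was at 114, 84.1 and 103 CPM in CD3 and 350, 361 and 451 CPM in CD3_CD28_ICOS (log2 fold change 1.94 ± 0.18 SE, adjusted p = 6.11e-06), and unstimulated libraries held 642, 718 and 609 CPM. It was thus well separated between the 2 stimulated groups and stayed below the unstimulated level in both. Klf3, a repressor of the Kruppel-like family, rose from 30.4, 43.2 and 43.8 CPM to 132, 149 and 181 CPM (log2 fold change 1.96 ± 0.26 SE, adjusted p = 0.000119). Dapl1 rose from 21.9, 40.99 and 30.1 CPM to 82.3, 179.7 and 127 CPM (log2 fold change 2.00 ± 0.35 SE, adjusted p = 0.00101). The 1 member that fell was Igfbp4, a gene high in naive cells, at 122, 141 and 121 CPM and 28.4, 99.1 and 50.4 CPM (log2 fold change -1.27 ± 0.33 SE, adjusted p = 0.0088). Summed over the 23 genes the list stood at 6071 to 6679 CPM in CD3, 11381 to 13002 CPM in CD3_CD28_ICOS, 4873 to 5945 CPM in CD3_CD28 and 15474 to 15911 CPM in Unstimulated. In the overlapping list of FOXO and KLF2 targets 11 of 15 were higher and 0 lower (73.3% and 0%), with a median of 0.65. Without the first CD3 library the number higher was 7. Klf2 lay at 88.3, 99.9 and 97.7 CPM and 138, 184 and 161 CPM without overlap but missed the threshold (log2 fold change 0.74 ± 0.30 SE, adjusted p = 0.0647). It passed without the third Unstimulated library (adjusted p = 0.00267), which held 913 CPM.

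The PI3 kinase genes themselves gave 9 higher and 4 lower of 23 (39.1% and 17.4%, beside 18.9% and 28.7% of all tested genes), with a median of 0.12, and the 4 became 1 without the second CD3_CD28_ICOS library and 2 without the first or the second CD3 or the third CD3_CD28_ICOS library. The rises took in catalytic and regulatory subunits and 4 brakes of the pathway (Pik3ip1, Phlpp1, Inpp5d and Inpp4b). Pik3r1, the p85 regulatory subunit, was at 133, 105 and 109 CPM and 246, 304 and 295 CPM (log2 fold change 1.28 ± 0.13 SE, adjusted p = 1.12e-05). Pik3ip1, a membrane inhibitor of PI3 kinase, was at 62.2, 43.1 and 53.6 CPM and 102, 129 and 135 CPM (log2 fold change 1.19 ± 0.19 SE, adjusted p = 0.000325). Phlpp1, an AKT phosphatase gene, was at 33.2, 36.2 and 36.9992 CPM and 88.1, 67.3 and 114 CPM (log2 fold change 1.29 ± 0.18 SE, adjusted p = 8.69e-05). None of the 3 genes overlapped between groups. Akt1, the kinase itself, was lower, at 172, 159 and 169.7 CPM and 139, 116 and 125 CPM (log2 fold change -0.40 ± 0.11 SE, adjusted p = 0.0102). Pik3r3, another regulatory subunit, was below the tested level at 0.614, 0.683 and 0.898 CPM in CD3 and 9.46, 2.92 and 8.06 CPM in CD3_CD28_ICOS.

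**Figure D3:**
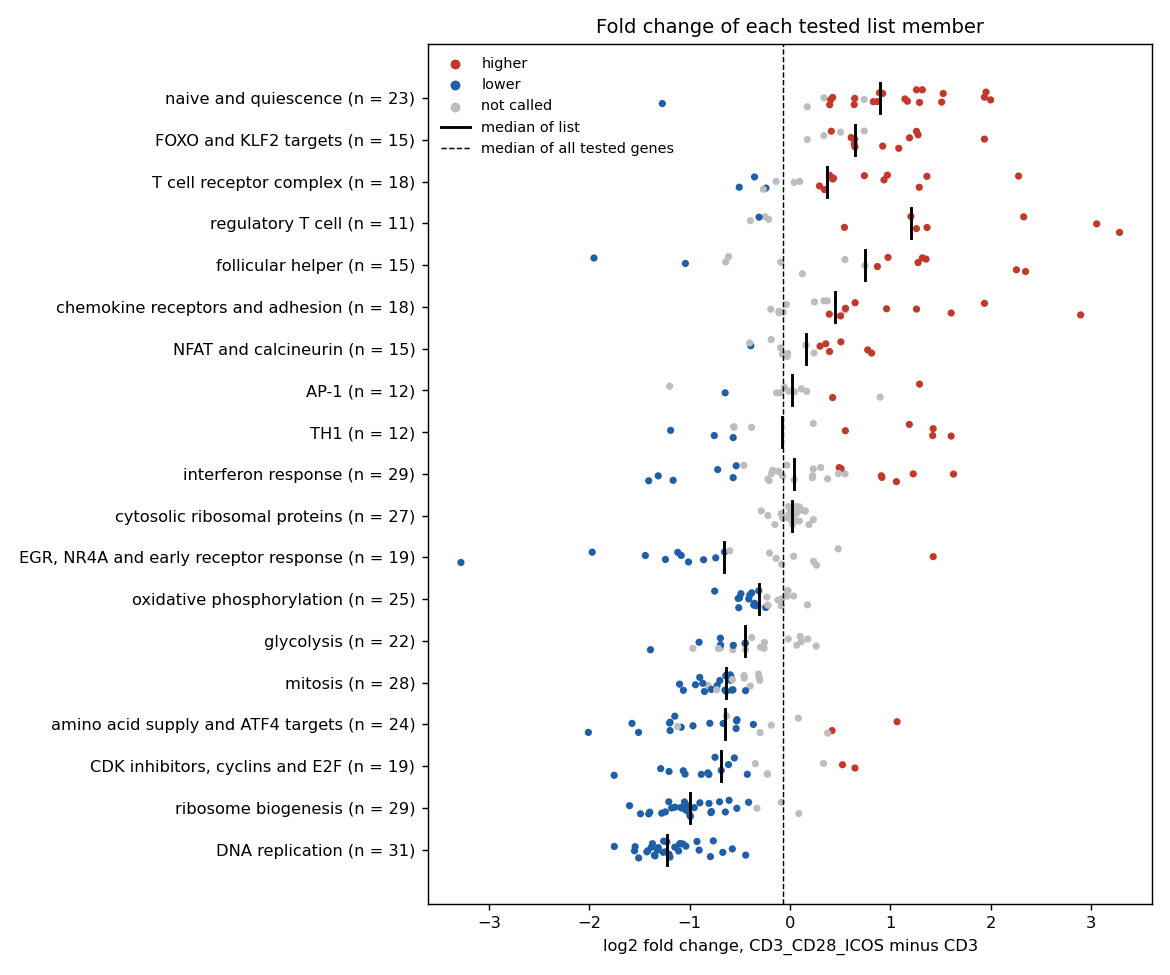
Log2 fold change of every tested member of 19 gene lists, coloured by call; solid bars are list medians and the dashed line is the median of all 9826 tested genes (-0.07). Naive and FOXO genes lie to the right, and DNA replication and ribosome biogenesis genes lie to the left.

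Regulatory T cell genes gave 7 higher and 1 lower of 11 (63.6% and 9.09%, beside 18.9% and 28.7% of all tested genes). The median was 1.21, and the numbers held with any 1 library of the comparison left out. Foxp3, the lineage factor, was at 14.8, 5.68 and 7.65 CPM in CD3 and 106, 18.2 and 55.4 CPM in CD3_CD28_ICOS (log2 fold change 2.33 ± 0.55 SE, adjusted p = 0.006). That is a wide spread within the CD3_CD28_ICOS group: the fold change was 1.76 without its first library and 3.00 without its second. Unstimulated cells held 45.1, 30.2 and 45.4 CPM and CD3_CD28 cells 2.86, 4.53 and 5.22 CPM. Across the 3 CD3_CD28_ICOS libraries the summed B cell markers, at 2535, 917 and 2108 CPM, had the same order as Foxp3, which they did not in CD3 (1145, 1218 and 2366 CPM), and their part in the result was not tested. Lrrc32 and Ikzf2, given above, and Il2rb, the interleukin-2 receptor beta chain, were also higher; Il2rb was at 465, 567 and 429 CPM and 963, 1495 and 967 CPM (log2 fold change 1.21 ± 0.20 SE, adjusted p = 0.000505). Capg, an actin-capping gene in the same list, was the 1 lower member and fell by 0.31 ± 0.08 on the log2 scale. Against CD3_CD28 the list had 3 members higher and 5 lower, with a median of -0.11. The whole list summed to 1244 to 1435 CPM in CD3, 2167 to 2669 CPM in CD3_CD28_ICOS and 3089 to 3445 CPM in CD3_CD28. Lrrc32 was at 86, 84.6 and 97.5 CPM in CD3_CD28.

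Of 7 tested TH2 genes 3 were higher and 0 lower (42.9% and 0%, beside 18.9% and 28.7% of all tested genes). Without the second CD3_CD28_ICOS library 1 was lower. Gata3, the lineage factor of TH2 cells, was at 47.3, 55.4 and 46.7 CPM in CD3, 138, 230.1 and 160 CPM in CD3_CD28_ICOS and 204, 144 and 169.7 CPM in CD3_CD28 (log2 fold change 1.77 ± 0.17 SE, adjusted p = 7.01e-06 against CD3). Ccr8, a chemokine receptor of TH2 and regulatory cells, was at 9.56, 9.64 and 6.25 CPM, 79.1, 65.05 and 62.8 CPM and 81.99, 76.8 and 72.4 CPM in the same order (log2 fold change 2.90 ± 0.19 SE, adjusted p = 5.13e-07), and Il4ra, the interleukin-4 receptor chain, was higher by 1.00 ± 0.11. All 3 were well above CD3. The difference from CD3_CD28 was 0.01 ± 0.17 for Gata3 and -0.16 ± 0.19 for Ccr8 (adjusted p = 0.961 and 0.468). Il4 and Il13 stayed low, at 0, 0.304 and 0 and 0.351, 0.797 and 0.490 CPM in CD3 and 0.0266, 0.336 and 0.0353 and 1.12, 1.01 and 0.846 CPM in CD3_CD28_ICOS.

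Of the follicular helper genes 7 of 15 were higher and 2 lower, with a median of 0.75. These are 46.7% and 13.3%, beside 18.9% and 28.7% of all tested genes. Bcl6, the lineage factor, was at 64.5, 27.9 and 41.1 CPM in CD3, 108, 87.5 and 117 CPM in CD3_CD28_ICOS and 5.06, 6.58 and 4.94 CPM in CD3_CD28 (log2 fold change 1.28 ± 0.24 SE, adjusted p = 0.000952 against CD3). Sh2d1a, which encodes SAP, the adaptor of SLAM receptors, was at 14.7, 8.69 and 11.9 CPM and 55.98, 69.002 and 64.1 CPM (log2 fold change 2.35 ± 0.15 SE, adjusted p = 4.77e-07). P2rx7, an ATP-gated channel gene, was at 15.1, 13.2 and 12.7 CPM and 58.1, 78.5 and 72.1 CPM (log2 fold change 2.26 ± 0.15 SE, adjusted p = 5.51e-07). Each of these 3 was higher in every CD3_CD28_ICOS library than in every CD3 library. Il6st, the shared gp130 chain of interleukin-6 receptors, rose by 1.36 ± 0.20. The 2 that fell were Pou2af1, above, and Cd200, at 146, 127 and 121 CPM and 63.3, 60.4 and 66.2 CPM (log2 fold change -1.04 ± 0.15 SE, adjusted p = 0.00016). Cxcr5, the follicle homing receptor, which B cells also express, was at 23.7, 23.4 and 48.1 CPM and 62.5, 26.9 and 51.4 CPM with overlapping groups (log2 fold change 0.55 ± 0.37 SE, adjusted p = 0.249). Its highest values in each group came from libraries that also had high B cell marker sums, and their part in the level was not tested.

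In the TH1 list 5 of 12 were higher and 3 lower (41.7% and 25%, beside 18.9% and 28.7% of all tested genes). The number lower was 1 when any CD3 library or the third CD3_CD28_ICOS library was left out. Without the second CD3 or the third CD3_CD28_ICOS library that 1 was not among the 3 lower members named here. The 5 were 3 receptors and the factors Stat4 and Runx3. Cxcr3, a chemokine receptor gene, was at 9.21, 2.73 and 5.20 CPM and 25.8, 12.0003 and 18.2 CPM; it reached the tested level only in CD3_CD28_ICOS. Ifngr1, an interferon-gamma receptor chain, was at 210, 134 and 165 CPM and 412, 413 and 539 CPM (log2 fold change 1.43 ± 0.16 SE, adjusted p = 2.44e-05). Il12rb2, the inducible interleukin-12 receptor chain, was at 118, 89.5 and 74.1 CPM and 208, 305 and 242 CPM (log2 fold change 1.42 ± 0.18 SE, adjusted p = 4.95e-05). The 3 lower members were Il12rb1, Eomes and Tbx21. Il12rb1, the other chain of the interleukin-12 receptor, was at 74.5, 97.3 and 79.8 CPM and 43.5, 58.7 and 46.3 CPM without overlap (log2 fold change -0.75 ± 0.22 SE, adjusted p = 0.0144), a call lost without the second CD3 or the third CD3_CD28_ICOS library (adjusted p = 0.0611 and 0.0502). Eomes, a T-box factor gene, was at 90.5, 99.6 and 138 CPM and 65.98, 29.8 and 51.5 CPM (log2 fold change -1.19 ± 0.44 SE, adjusted p = 0.0458), a call lost without any CD3 library or the second or the third CD3_CD28_ICOS library (adjusted p up to 0.166), and without the filter on low values (adjusted p = 0.0666). Tbx21, which encodes T-bet, was at 61.9, 60.96 and 56.7 CPM and 41.5, 43.5 and 35.8 CPM (log2 fold change -0.56 ± 0.20 SE, adjusted p = 0.0365), a call lost when any CD3 library or the first or the third CD3_CD28_ICOS library was left out (adjusted p up to 0.122). Limma called 0 of 3 tested TH17 genes (1 at an unadjusted p under 0.05, and 1 called lower without the second CD3_CD28_ICOS library).

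Il2, Ifng and Il21 were scarce in both groups. Il2 was at 0.268, 0.194 and 0.0385 CPM in CD3 and 0.355, 0.341 and 0.363 CPM in CD3_CD28_ICOS, Ifng at 2.28, 1.37 and 0.791 and 0.746, 0.561 and 0.327 CPM, and Il21 at 0.526, 0.0759 and 0.151 and 0.0533, 0.262 and 0 CPM, all below the tested level. The CD3_CD28 libraries held 1.61, 3.48 and 3.33 CPM of Il2. Of the 13 secreted cytokine and chemokine genes that were tested 3 were higher and 1 lower (23.1% and 7.69%, beside 18.9% and 28.7% of all tested genes), and the whole list summed to 937 to 988 CPM in CD3 and 1119 to 1269 CPM in CD3_CD28_ICOS. The 1 became 2 without the first CD3_CD28_ICOS library and 0 without any other of the 6. Il16, a chemoattractant precursor, was at 234, 213 and 238 CPM and 429, 408 and 445 CPM (log2 fold change 0.90 ± 0.12 SE, adjusted p = 6.27e-05). Ltb, the lymphotoxin beta gene, was at 140, 179 and 143 CPM and 299, 257 and 288 CPM (log2 fold change 0.87 ± 0.10 SE, adjusted p = 3.14e-05).

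Inhibitory, anergy and cytotoxic genes are given beside the 18.9% higher and 28.7% lower of all tested genes. Inhibitory receptor genes gave 3 higher and 2 lower of 11 (27.3% and 18.2%), and with 1 library left out (any CD3 library, or the second or the third CD3_CD28_ICOS library) 1 was lower. Pdcd1, the gene of PD-1, was at 70.3, 40.05 and 46.3 CPM and 42.8, 22.1 and 37.3 CPM with overlapping groups (log2 fold change -0.61 ± 0.32 SE, adjusted p = 0.138), and Entpd1, which encodes the ectonucleotidase CD39, was at 5.97, 4.90 and 8.18 CPM and 17.2, 22.6 and 16.8 CPM, reaching the tested level only with the CD3_CD28_ICOS libraries. Tox, an exhaustion-linked factor gene, did not pass the test (log2 fold change 0.17 ± 0.21 SE, adjusted p = 0.543). The anergy list gave 5 higher and 4 lower of 14 (35.7% and 28.6%), and 3 higher without the second or the third CD3 library or the third CD3_CD28_ICOS library. Ikzf3, the gene of the Ikaros factor Aiolos, rose from 174, 123 and 142 CPM to 617, 465 and 537 CPM (log2 fold change 1.88 ± 0.14 SE, adjusted p = 9.6e-07). Dgka, a diacylglycerol kinase that damps the RAS branch, rose from 454, 427 and 459.8 CPM to 549, 732 and 801 CPM (log2 fold change 0.62 ± 0.12 SE, adjusted p = 0.000824), while Nt5e, which encodes CD73, fell by 1.16 ± 0.16 on the log2 scale. Among 10 cytotoxic genes 2 were higher and 3 lower (20% and 30%, near those of all genes), and 1 was higher without the second or the third CD3 library or the third CD3_CD28_ICOS library. Gzmb led the decreases and Fasl, the death ligand gene, followed at 17.9, 16.8 and 16.4 CPM and 6.48, 10.3 and 10.1 CPM (log2 fold change -0.88 ± 0.17 SE, adjusted p = 0.00105). Ctsw, a cathepsin of cytotoxic cells, was higher at 26.1, 10.8 and 14.5 CPM and 61.5, 43.9 and 43.7 CPM (log2 fold change 1.55 ± 0.25 SE, adjusted p = 0.00038). Markers of CD8 T cells and NK cells gave 2 higher (Cd8a and Cd8b1) and 1 lower (Eomes) of 5 tested. Cd8a was at 11.1, 7.55 and 9.49 CPM and 46.6, 20.9 and 18.2 CPM and reached the tested level only with the CD3_CD28_ICOS libraries, and Cd8b1 was at 17.3, 16.2 and 14.4 CPM and 30.2, 23.9 and 20.5 CPM (log2 fold change 0.59 ± 0.15 SE, adjusted p = 0.00578). Klrd1 was at 10.7, 4.10 and 6.10 CPM and 12.5, 5.87 and 9.38 CPM and Klrc1 at 5.09, 1.71 and 4.37 CPM and 0.640, 0.299 and 0.141 CPM, both below the tested level, and Ncr1 was at 0 in all 6 libraries. All 12 markers summed to 144 to 194 CPM in CD3 and 93.6 to 179 CPM in CD3_CD28_ICOS, and their part in these results was not tested.

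The 130 bases before the Gzmb start are shown because they hold the AP-1 motif searched in all promoters. They lie at chr14:56262335-56262464 on the minus strand (RefSeq, GRCm38.p6, 5′ to 3′ in the direction of transcription), with the motif, TGACTCA read on the opposite strand, in capitals.
Gzmb: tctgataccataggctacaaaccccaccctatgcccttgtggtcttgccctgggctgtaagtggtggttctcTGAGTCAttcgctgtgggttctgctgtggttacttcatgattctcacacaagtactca

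Genes of cell division were lower in CD3_CD28_ICOS. In the DNA replication list all 31 of the 31 tested members were lower, against a background of 28.7%, with a median of -1.23 and a range of -1.75 to -0.44. Mcm6, a subunit of the replicative helicase, was at 705, 744 and 753 CPM in CD3 and 325, 237 and 206 CPM in CD3_CD28_ICOS (log2 fold change -1.54 ± 0.14 SE, adjusted p = 5.68e-06). Cdc6, which loads the helicase, was at 52.1, 66.3 and 70.6 CPM and 32.7, 16.5 and 16.4 CPM (log2 fold change -1.55 ± 0.29 SE, adjusted p = 0.00093). Gins1, of the GINS helicase cofactor, was at 26.6, 28.7 and 27.7 CPM and 10.1, 6.80 and 6.14 CPM; it and Gins3 are the 2 of the 31 that reached the tested level only with the CD3 libraries. No value of Mcm6 or Cdc6 overlapped between the groups, and in Mcm6, Cdc6 and Gins1 the first CD3_CD28_ICOS library was the highest of its group. Leaving out any 1 library of the comparison left 30 or 31 of the 31 lower. The summed level was 4861 to 5659 CPM in CD3, 1809 to 2836 CPM in CD3_CD28_ICOS, 1887 to 2690 CPM in CD3_CD28 and 908 to 963 CPM in Unstimulated.

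Mitosis genes were lower less uniformly, at 19 of 28 (67.9%, beside 28.7% of all tested genes) with a median of -0.63. Without the third CD3_CD28_ICOS library, the lowest of its group in this list, the number lower was 8. Aurkb, the chromosomal passenger kinase, was at 129, 160.1 and 153 CPM and 68.4, 84.4 and 54.7 CPM (log2 fold change -1.10 ± 0.19 SE, adjusted p = 0.000511). Cdk1, the mitotic kinase, was at 133, 143 and 139 CPM and 71.6, 74.5 and 53.3 CPM (log2 fold change -1.06 ± 0.20 SE, adjusted p = 0.000882). Mki67, the proliferation marker, was at 1637, 1629 and 1677 CPM and 1283, 1415 and 955 CPM without overlap but missed the threshold (log2 fold change -0.46 ± 0.26 SE, adjusted p = 0.174; adjusted p = 0.0265 with the 6 libraries alone). Of 19 cyclin, CDK, inhibitor and E2F genes 13 were lower and 2 higher (68.4% and 10.5%, beside 28.7% and 18.9% of all tested genes). E2f7, 1 of the 13, reached the tested level only with the CD3 libraries. Cdk6, the G1 kinase, was at 235, 189 and 211 CPM and 76.98, 49.97 and 61.7 CPM (log2 fold change -1.75 ± 0.17 SE, adjusted p = 7.23e-06). E2f1, an activator of replication genes, was at 29.6, 37.8 and 33.5 CPM and 13.6, 16.4 and 10.02 CPM (log2 fold change -1.29 ± 0.17 SE, adjusted p = 7.41e-05), and Ccne2, a cyclin of the G1 to S transition, fell by 1.204 ± 0.20 on the log2 scale. The 2 rises were in brakes of the cycle. Cdkn1b, which encodes p27, was at 93.2, 115 and 119 CPM and 139, 198 and 180.1 CPM (log2 fold change 0.65 ± 0.16 SE, adjusted p = 0.00437). Rbl2, which encodes the quiescence factor p130, was at 108, 108 and 112 CPM and 145, 160.3 and 168 CPM (log2 fold change 0.52 ± 0.08 SE, adjusted p = 0.000191). Cdkn1a, the p21 gene, fell instead, at 16.7, 22.9 and 14.7 CPM and 6.90, 12.04 and 6.07 CPM (log2 fold change -1.06 ± 0.21 SE, adjusted p = 0.00112), and was at 274, 248 and 269 CPM in CD3_CD28.

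**Figure D4:**
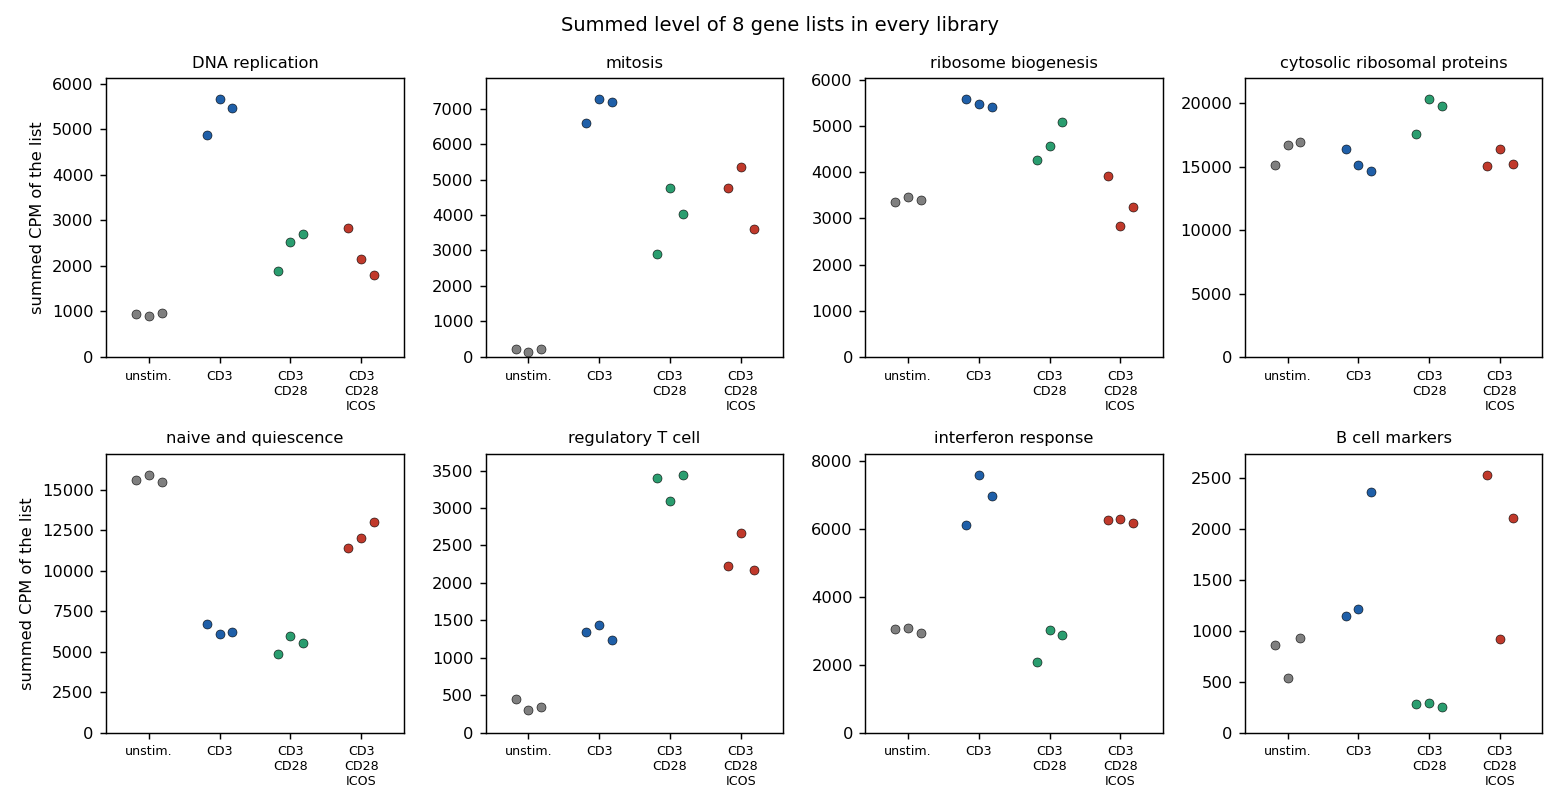
Summed CPM of 8 gene lists in each of the 12 libraries, on linear axes that start at 0. DNA replication and ribosome biogenesis sums are lower in every CD3_CD28_ICOS library than in every CD3 library, the naive sum is higher, and the B cell marker sums of the 2 groups overlap.

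Ribosome assembly genes were lower and ribosomal protein genes were not called. Of 29 ribosome biogenesis genes 26 were lower and 0 higher (89.7% and 0%, beside 28.7% and 18.9% of all tested genes). Their median was -0.997. Gnl3, the gene of nucleostemin, was at 74.7, 75.9 and 88.5 CPM in CD3 and 36.7, 14.02 and 32.2 CPM in CD3_CD28_ICOS (log2 fold change -1.60 ± 0.27 SE, adjusted p = 0.000554). Nolc1, a nucleolar chaperone of snoRNPs, was at 197, 187 and 191 CPM and 107, 39.1 and 73.9 CPM (log2 fold change -1.49 ± 0.27 SE, adjusted p = 0.00105). Polr1b, a subunit of RNA polymerase I, was at 65.1, 59.1 and 57.2 CPM and 34.99, 13.6 and 22.6 CPM (log2 fold change -1.41 ± 0.27 SE, adjusted p = 0.00127). The second CD3_CD28_ICOS library was the lowest of its group in all 3, and the groups did not overlap. Among 27 cytosolic ribosomal protein genes limma called 0 in either direction (0 at an unadjusted p under 0.05), with a median of 0.02. Quantile normalization called 2 higher and 1 lower of those 27, with a median of -0.0009, and 1 was lower without the second CD3_CD28_ICOS library.

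Of 24 amino acid supply and ATF4 target genes 15 were lower and 2 higher, with a median of -0.65. These are 62.5% and 8.33%, beside 28.7% and 18.9% of all tested genes. Without the first CD3 library or the second or the third CD3_CD28_ICOS library 1 was higher. Slc7a5, the large neutral amino acid transporter, was at 134, 143 and 142 CPM and 72.9, 35.8 and 37.9 CPM (log2 fold change -1.57 ± 0.20 SE, adjusted p = 5.83e-05). Asns, asparagine synthetase, was at 45.1, 49.5 and 43.3 CPM and 22.6, 14.8 and 11.04 CPM (log2 fold change -1.51 ± 0.23 SE, adjusted p = 0.000217). Shmt1, of the folate cycle, was at 82.6, 76.7 and 79.1 CPM and 33.7, 10.7 and 18.7 CPM (log2 fold change -2.01 ± 0.31 SE, adjusted p = 0.000315). Sesn2, a stress-induced inhibitor of mTORC1, rose instead, from 14.1, 13.6 and 14.5 CPM to 34.9, 24.9 and 33.1 CPM (log2 fold change 1.07 ± 0.12 SE, adjusted p = 2.19e-05). Both Slc7a5 and Asns were far higher in CD3_CD28, at 287, 299.8 and 322 and 134, 148 and 150 CPM.

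In glycolysis, respiration and sterol synthesis the number of genes lower shifted when single libraries were left out. In glycolysis 7 of 22 were lower and 0 higher, a share of 31.8% near the 28.7% of all tested genes, and the number lower was 16 without the second CD3_CD28_ICOS library and 2 without the first or the third CD3_CD28_ICOS or the second CD3 library. Without the first CD3_CD28_ICOS library 1 was higher. Slc16a1, the lactate exporter MCT1, was at 178, 180.3 and 163 CPM and 66.4, 68.2 and 62.6 CPM (log2 fold change -1.39 ± 0.12 SE, adjusted p = 2.55e-06). Pgam1, a glycolytic mutase, was at 415, 517 and 416 CPM and 199, 365 and 186 CPM (log2 fold change -0.90 ± 0.19 SE, adjusted p = 0.0023), the second CD3_CD28_ICOS library being closest to CD3 in Pgam1. Hypoxia genes gave 2 of 17 lower (11.8%), 12 of 17 without that same library and 1 without any other of the 6 except the third CD3 library. Oxidative phosphorylation genes gave 14 of 25 lower (56%) with a median of -0.31, and 9 without the third CD3_CD28_ICOS library, Cox5a, of cytochrome c oxidase, being at 94.3, 96.3 and 97.9 CPM and 73.6, 67.6 and 60.4 CPM (log2 fold change -0.52 ± 0.10 SE, adjusted p = 0.00104). In cholesterol synthesis 10 of 23 were lower (43.5%), with 18 lower without the second and 5 without the third CD3_CD28_ICOS library. Of 14 heat shock genes 6 were lower (42.9%), among them Hspd1, a mitochondrial chaperonin, at 170.4, 199.6 and 189 CPM and 109, 65.8 and 76.6 CPM (log2 fold change -1.17 ± 0.20 SE, adjusted p = 0.000522).

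Survival genes were higher in 7 of 12 and lower in 1 (58.3% and 8.33%, beside 18.9% and 28.7% of all tested genes), with a median of 0.36, and 0 were lower without the second or the third CD3 or the second CD3_CD28_ICOS library. In the overlapping list of STAT5 and interleukin-2 response genes 5 of 19 were higher and 3 lower (26.3% and 15.8%), with 8 higher without the second CD3 library. Pim2, a survival kinase gene, was at 113, 150.4 and 124 CPM and 225, 367 and 257 CPM (log2 fold change 1.11 ± 0.19 SE, adjusted p = 0.000564). Bcl2 was at 102, 133 and 102 CPM and 153, 173 and 154 CPM (log2 fold change 0.52 ± 0.13 SE, adjusted p = 0.00429). Cflar, which encodes the caspase 8 inhibitor FLIP, was at 96.5, 98.2 and 109 CPM and 153, 148 and 151 CPM (log2 fold change 0.57 ± 0.11 SE, adjusted p = 0.000804). None of the 3 overlapped. Genes of apoptosis and p53 gave 7 higher and 7 lower of 21 (33.3% each), with 3 higher without the first or the third CD3 library, 4 without the second CD3 or the second CD3_CD28_ICOS library and 2 without the third CD3_CD28_ICOS library. Without the second CD3 library 4 were lower. Bmf, a BH3-only death gene, was at 9.04, 5.66 and 8.36 CPM and 12.2, 15.7 and 16.9 CPM and reached the tested level only with the CD3_CD28_ICOS libraries, and Aen, a p53-induced nuclease gene, fell by 1.06 ± 0.24 on the log2 scale. NF-kB genes gave 5 higher and 2 lower of 20 (25% and 10%), with 2 higher without the first or the second CD3 or the third CD3_CD28_ICOS library. The 2 lower became 1 without any CD3, the second CD3_CD28_ICOS or the second CD3_CD28 library. Bcl3, an atypical I-kappa-B that works in the nucleus, was at 50.1, 46.9 and 53.7 CPM and 93.6, 106 and 96.9 CPM (log2 fold change 0.96 ± 0.20 SE, adjusted p = 0.00153).

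Of 29 tested interferon-response genes 7 were higher and 6 lower (24.1% and 20.7%, beside 18.9% and 28.7% of all tested genes) with a median of 0.04, and 3 were lower without the second CD3 library. Gbp2 and Gbp5 are guanylate-binding protein genes, which answer mainly to interferon-gamma. Gbp2 was at 1337, 1857 and 1515 CPM in CD3 and 658, 620.4 and 493 CPM in CD3_CD28_ICOS (log2 fold change -1.41 ± 0.14 SE, adjusted p = 6.79e-06). Gbp5 was at 317, 449 and 386 CPM and 173, 144 and 143 CPM (log2 fold change -1.31 ± 0.19 SE, adjusted p = 0.000192). Igtp, another interferon-gamma-induced gene, was higher instead. The IFIT genes answer mainly to type I interferon: Ifit1 was at 4.12, 5.62 and 4.59 CPM and 11.03, 12.7 and 13.9 CPM (log2 fold change 1.23 ± 0.19 SE, adjusted p = 0.000178). Ifit2 was at 38.7, 46.95 and 44.3 CPM and 87.3, 91.1 and 95.6 CPM (log2 fold change 1.06 ± 0.15 SE, adjusted p = 8.76e-05). Ifit3 was at 1.13, 3.93 and 1.96 CPM and 7.36, 8.18 and 11.02 CPM (log2 fold change 1.63 ± 0.31 SE, adjusted p = 0.000775). In all 5 genes the groups did not overlap. Of the chemokine receptor and adhesion genes 9 of 18 were higher and 0 lower (50% and 0%), with a median of 0.45, led by Ccr8 and S1pr1. Cxcr3, 1 of the 9, reached the tested level only with the CD3_CD28_ICOS libraries.

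Promoter windows of 300 bases, from 250 before to 50 after the start, were matched by symbol for 7402 of the tested genes in RefSeq (GRCm38.p6). They were searched on both strands. An E2F motif (TTTGGCGC or TTTCGCGC) was in 3.45% of the windows of genes called lower, 0.835% of those called higher and 2.08% of all tested genes with a window. Of the 23 DNA replication genes with a window 8 held it. The E-box CACGTG was in 15.3%, 10.6% and 12.4% in the same order, and in 6 of 25 ribosome biogenesis genes. The AP-1 motif TGACTCA was in 3.5%, 5.08% and 4.13%, the related CRE motif TGACGTCA in 3.78%, 2.71% and 3.89%, and TGACTCA with TTTCC within 30 bases in 0.886%, 0.905% and 0.77%. The STAT motif TTCNNNGAA was in 8.07%, 9.32% and 8.44%, the NF-kB motif GGACTTTCC in 0.233%, 0.905% and 0.554%, and the ATF4 motif TGATGCAAT in 0.28%, 0.0696% and 0.108%. Only 1 of the 20 amino acid supply and ATF4 target genes with a window held the ATF4 motif. In the whole promoter table of 27025 genes the shares were 0.929% for E2F, 8.09% for the E-box and 5.95% for TGACTCA. These shares are descriptions with no test, and a match is not a binding site.

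Printed here are the 130 bases before the start of a replication gene with E2F motifs, a ribosome biogenesis gene with an E-box and an amino acid gene with the ATF4 motif, each lower in CD3_CD28_ICOS, read 5′ to 3′ in the direction of transcription with the motif in capitals. They lie at chr1:128359706-128359835 (minus strand), chr6:125131753-125131882 (plus strand) and chr11:120643749-120643878 (minus strand). In Mcm6 the first run of capitals joins a pair of overlapping matches on opposite strands. Nop2, a nucleolar RNA methyltransferase gene, and Pycr1, a proline synthesis gene, were picked for their motifs after their values were seen; their log2 fold changes were -1.05 ± 0.19 and -1.19 ± 0.24 (adjusted p = 0.000775 and 0.00113).
Mcm6: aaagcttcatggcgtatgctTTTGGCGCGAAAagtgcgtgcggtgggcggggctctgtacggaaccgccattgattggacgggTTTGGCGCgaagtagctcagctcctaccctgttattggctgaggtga
Nop2: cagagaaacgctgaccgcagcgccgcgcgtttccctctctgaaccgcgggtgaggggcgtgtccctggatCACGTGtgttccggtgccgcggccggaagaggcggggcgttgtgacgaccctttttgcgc
Pycr1: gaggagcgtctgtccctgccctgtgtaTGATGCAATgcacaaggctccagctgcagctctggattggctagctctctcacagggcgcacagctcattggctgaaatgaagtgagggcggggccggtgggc

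CD3_CD28 shares anti-CD3 and anti-CD28 but has its anti-CD3 on the plate and no anti-ICOS, and these differences cannot be told apart. Set beside CD3_CD28, the CD3_CD28_ICOS cells differed widely: 3787 genes were higher (38.5%) and 2403 lower (24.5%), together 63%. Median of ratios scaling turned that balance, with 2783 higher and 3605 lower, and quantile normalization gave 3224 and 3115. The ribosomal RNA entry CT010467.1 took 11.8% of the first CD3_CD28 library and 1.37 to 2.74% of the other libraries of these groups. CPM rescaled without it gave 3551 higher and 2787 lower. The comparison uses the same CD3_CD28_ICOS libraries as the one against CD3, so the values are given side by side only. For several genes raised over CD3 the difference from CD3_CD28 did not pass the test: 0.39 ± 0.31 for Lad1, 0.13 ± 0.17 for Batf, 0.29 ± 0.24 for Ctla4 and -0.11 ± 0.20 for Il2rb (adjusted p = 0.289, 0.525, 0.315 and 0.649). Others were higher than in both groups. Ikzf2 was at 30.3, 28.95 and 33.6 CPM in CD3_CD28, 2.56 ± 0.32 below CD3_CD28_ICOS on the log2 scale (adjusted p = 3.03e-05), and Cd96 at 23.4, 29.7 and 38.9 CPM, 3.05 ± 0.16 below (adjusted p = 1.5e-08). S1pr1 and Bcl6 also exceeded CD3_CD28, by 3.10 ± 0.18 and 4.01 ± 0.24. Gzmb and Myc were lower than in both groups, with 1298, 1669 and 1769 CPM of Gzmb and 256, 309 and 316 CPM of Myc in CD3_CD28 and differences of -5.05 ± 0.32 and -1.33 ± 0.13 (adjusted p = 3.19e-07 and 1.06e-06). The DNA replication list, lower than CD3 throughout, had 3 members higher and 3 lower against CD3_CD28, with a median of 0.02. The 15 B cell markers, of which 0 passed the test against CD3, summed to 257 to 287 CPM in CD3_CD28, and 14 of them were higher in CD3_CD28_ICOS; their part in the other differences from CD3_CD28 was not tested.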

How the data were processed

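RNA-seq values of 12 libraries in 4 groups of 3 were used as the authors deposited them, in CPM with 0.0001 added to every cell, which was subtracted. The submitters' processing notes name Partek 10, DESeq2 and mm10; for the aligner and gene annotation, none is named there. Log2 ratios, p-values and false discovery rates of the authors' deposited table, per the file headers of their comparison, were only set beside the values computed here.

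Genes with at least 10 CPM in at least 3 of the 12 libraries were fitted with limma 3.58.1 (R 4.3.3) on log2(CPM + 1), with 1 mean per group over all 12 libraries and a robust variance trend. P-values were adjusted by Benjamini-Hochberg over 9826 genes and called at 0.05. Low CPM values were whole multiples of a common step (within 0.02) in only 76.3 to 81.3% of cases, so reads were not recovered and no count test was run; the steps gave the depth estimates. The fit was tested on simulated data.

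Named genes were the 10 largest called changes in each direction with groups that did not overlap and a level at or above the median, up to 3 called members of each list in the main direction and 2 in the other, and a set of NFAT, AP-1, costimulation and lineage genes. Genes outside that rule are named as such or, without values, to complete a small count, and a few that the rule gives are not reported here. The members and the 40 gene lists were chosen with earlier results of these data known. Lists are described by counts and medians and were not tested as sets. Alternatives were other pseudocounts, filters and scalings, the 6 compared libraries alone, a replicate block and leaving out single libraries.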

Additional observations from a re-analysis of the deposited data

How the results depend on the processing

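More genes were lower than higher against CD3 under every alternative except quantile normalization (2591 higher and 2542 lower). The number of genes lower by at least 1 log2 unit was 309 with a pseudocount of 5 against 481, and the number lower than in CD3_CD28 was 3605 with median of ratios scaling against 2403. Leaving out 1 of the 6 libraries compared gave 1381 to 1814 genes higher and 2277 to 2834 lower than CD3. Nr4a1, not called, changed sign with 1 library left out, ranging from -0.20 to 0.12. The replicate block gave 1815 higher and 2774 lower. It moved Klf2 to an adjusted p of 0.0246, Pdcd1 to 0.0499, Dusp5 to 0.0526 and Eomes to 0.084. Deviations of same-numbered CD3 and CD3_CD28_ICOS libraries correlated at 0.09, 0.41 and 0.34, in each case the highest value of that CD3 library. Differently numbered pairs ranged from -0.31 to 0.13, and the first CD3_CD28_ICOS library correlated best with the third CD3 library (0.13). Whether the numbers mark pairs is not in the labels, so the main fit used no pairing. Tbx21 missed the threshold with a pseudocount of 0.1 (adjusted p = 0.0695) and with median of ratios scaling (adjusted p = 0.0622). By the authors' false discovery rates, 26 DNA replication, 20 ribosome biogenesis, 6 mitosis, 2 oxidative phosphorylation and 1 apoptosis and p53 genes were lower, with 0 higher in each list. Tbx21, Cd8b1, Capg, Fasl, Pycr1 and Akt1, called here, had false discovery rates of 0.564, 0.45, 0.337, 0.247, 0.23 and 0.214 there. The depth of each library is an estimate, and the number of libraries limits the precision of every value.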

Other observations

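Gene families grouped by name, chosen after the values were seen, gave further counts beside the background of 18.9% higher and 28.7% lower. Several families of protein production and turnover were mostly lower in CD3_CD28_ICOS: 26 of 36 aminoacyl-tRNA synthetases (72.2%, median -0.53), 46 of 75 mitochondrial ribosomal proteins (61.3%, median -0.35), 31 of 54 translation initiation factors (57.4%), all 8 subunits of the TRiC chaperonin (median -0.61) and 25 of 35 proteasome subunits (71.4%, median -0.42). Other such families were not: autophagy genes gave 7 higher and 3 lower of 23 (median 0.13), vacuolar ATPase subunits 4 higher and 3 lower of 14 (median -0.02), and of 27 cytosolic ribosomal proteins limma called 0 (0 at an unadjusted p under 0.05). Of 30 SRSF and HNRNP splicing factors 19 were lower and 0 higher. GIMAP GTPases, which support lymphocyte survival, were higher in 7 of 8 (87.5%, median 0.59); Gimap4 was at 847, 765 and 818 CPM in CD3 and 1210.2, 1132 and 1323 CPM in CD3_CD28_ICOS. Zinc finger genes named Zfp were higher in 48 of 207 (23.2%) and lower in 17 (8.21%), and both tested Tent5 polyadenylation enzymes were higher.

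A few genes outside the naming rule were picked after their values were seen. They reached the tested level only in 1 group, so the filter favoured a difference and they are given as levels with no test. Slc17a6, a vesicular glutamate transporter gene, was at 59.9, 28.2 and 35.7 CPM in CD3, 0.293, 0.112 and 0.0705 CPM in CD3_CD28_ICOS, 4.001, 1.97 and 2.78 CPM in CD3_CD28 and 0, 0 and 0 CPM in Unstimulated. Spp1, which encodes osteopontin, was at 37.5, 18.03 and 28.97 CPM in CD3 and 2.96, 0.336 and 0.917 CPM in CD3_CD28_ICOS. Selp, which encodes P-selectin, was at 2.54, 2.32 and 4.22 CPM in CD3 and 22.1, 29.7 and 31.6 CPM in CD3_CD28_ICOS, and Samd3 at 1.05, 0.342 and 0.565 CPM and 18.4, 16.6 and 18.8 CPM in the same order.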
